A study of Mus musculus with 6 samples.

Results

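Ciliary transport and ciliopathy genes were followed in mouse retinal RNA on 6 Affymetrix arrays, as a set of 38 genes of intraflagellar transport, the Bardet-Biedl complexes and the connecting cilium. Members were found by gene symbol in the platform annotation, which gave 44 probe sets for 26 of the 38 genes. The whole table held 22626 probe sets, of which 20380 had 1 symbol and stood for 12393 genes. The 691 with several symbols were not matched to any gene, members included. The other 12 of the 38 genes (Ift52, Bbs1, Bbs4, Bbs5, Bbs7, Bbs12, Lca5, Nphp4, Iqcb1, Arl6, Arl13b and Mks1) have no array values here and enter only the promoter search. Each gene was represented by the probe set with the highest mean signal over the 6 arrays.

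Per the labels, 3 arrays held retinal total RNA of C57BL/6 knockout mice and 3 held that of C57BL/6 wildtype mice, all at postnatal day 7. No other allele or agent is named for either group, and the number of animals behind each array is not stated. The comparison asks which transcripts differ between knockout and wildtype retinae while the photoreceptors are still building their outer segments.

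The photoreceptor outer segment is a modified primary cilium, joined to the cell body by a narrow connecting cilium. The proteins of the outer segment are made in the cell body and pass through this bridge. Intraflagellar transport complex B, driven outward by kinesin-2 motors, and complex A, which serves the return journey, carry cargo along the axoneme, and the BBSome, a coat of Bardet-Biedl proteins, moves membrane proteins in and out. Defects in these genes cause retinal dystrophy, alone or as part of syndromes such as Bardet-Biedl, Joubert and Senior-Løken.

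Before the results, the arrays were compared. Signals were scaled so that all arrays had the same trimmed mean, which before scaling was 263 to 304 on the knockout arrays and 171 to 312 on the wildtype arrays. Knockout array 1 stood apart: it correlated with the rest at 0.914 to 0.936, while pairs of the remaining 5 arrays correlated at 0.958 to 0.979. The 3′ to 5′ signal ratio of the Actb control, a measure of RNA integrity, was 2.17, 1.69 and 1.90 on knockout arrays 1 to 3. It was 1.64, 1.44 and 1.59 on wildtype arrays 1 to 3, so all knockout ratios lay above all wildtype ratios. The Gapdh ratios overlapped, at 1.18, 0.884 and 1.16 on knockout arrays 1 to 3 and 0.982, 0.824 and 0.88 on wildtype arrays 1 to 3. The 5′ probe set of the 18S control was high on knockout array 1 (609) and wildtype array 2 (2570), against 38.8 to 54.9 on the other 4. The tissue label was checked on photoreceptor precursor markers such as Crx and Otx2, of which the 4 measured were at 1480 to 3740 on every array on the brightest probe set of each gene. The sums of 8 rod markers, which weigh bright genes most, were 26450 to 28677 in knockout and 29283 to 32331 in wildtype retinae, without overlap. Of the 8 log2 fold changes 7 were negative, with a median of -0.12 (limma adjusted p = 0.999 for each). Taken singly, 2 of the 8 had groups that did not overlap, where 9.1% of all tested probe sets did. The 4 precursor markers had 2 positive and 2 negative values, and their sums overlapped (10099 to 11704 in knockout, 9903 to 11281 in wildtype). The 4 retinal progenitor markers had 3 positive and 1 negative value (median 0.15), and the 4 Mueller glia markers had 2 of each sign (median 0.092). The sums of both lists overlapped between the groups. The part of these markers in the results below was not tested. In whole-retina RNA, fewer cells of a type and less RNA per cell cannot be told apart.

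Many cilium genes are regulated by RFX transcription factors, which bind the X-box, a pair of inverted repeats. The promoters are shown because X-box letters are a feature that the choice of members did not use. RefSeq promoters (build GRCm38.p6, from 250 bases before to 50 after the transcription start) were found for 35 of the 38 genes, in 41 entries. An X-box with both repeats, spelled GTNNCC, then 2 or 3 bases of any kind, then GNNAC, and searched like the other motifs on both strands, was present in 11 of the 41 (26.8%), of which 5 belong to genes measured on the arrays, against 8.1% of all 32851 promoters. A single repeat, spelled GTTGCC, which can lie inside the full form, was present in 16 of the 41 (39%) and in 12.5% of all. Of these 16 entries, 2 are overlapping entries of Lca5 that share 1 match. The hexamer TAATCC, a letter match to the site of the photoreceptor factor CRX, was present in 3 of the 41 (7.32%) and in 7.06% of all. The palindrome TGCGCA, the core of the site of NRF1, a regulator of nuclear-encoded mitochondrial and many housekeeping genes, was present in 8 of the 41 (19.5%) and in 7.76% of all. In all, 8 letter forms were searched, and the core palindrome took the place of the full NRF1 palindrome after the counts of both were known. The full palindrome was present in 1 of the 41 (2.44%) and in 0.971% of all, and an X-box with stricter repeats or spacer in 5 of the 41 (12.2%) and in 2.38% of all. The single repeat followed by A was present in 5 of the 41 (12.2%) and in 4.38% of all, and followed by T in 6 of the 41 (14.6%) and in 4.3% of all. These are matches of letters, chosen with the sequences in view, and not measured binding. The stretches below show the X-box in capitals for Kif17, Ahi1 and Ift57, where the Ift57 capitals join overlapping matches, and the CRX-type hexamer in capitals for Rpgrip1. Of these, Kif17 lies on chr4:138262154-138262213, Ahi1 on chr10:20952537-20952596, Ift57 on chr16:49699201-49699260 and Rpgrip1 on chr14:52110848-52110907, all on the plus strand.
Kif17: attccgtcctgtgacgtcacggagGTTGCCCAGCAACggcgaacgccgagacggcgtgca
Ahi1: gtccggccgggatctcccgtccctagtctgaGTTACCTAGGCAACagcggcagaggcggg
Ift57: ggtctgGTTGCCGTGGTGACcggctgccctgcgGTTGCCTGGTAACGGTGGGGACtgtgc
Rpgrip1: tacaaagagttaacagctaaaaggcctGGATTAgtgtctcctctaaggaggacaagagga

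Of the 26 measured genes, 25 had a mean signal above the filter of 62.4 and were tested, and Rp2 was not. None of the 25 passed in limma (0 with a Benjamini-Hochberg adjusted p under 0.05, where 0.0147% of all 13575 tested probe sets did), and 1 had an unadjusted p under 0.05 (3.82% of all). Log2 fold changes, knockout minus wildtype on the log2(scaled signal + 19.1) scale, were positive for 13 and negative for 12, where 50.1% of all tested probe sets were positive. Their median was 0.0012, against 0.00031 for all tested probe sets. Most values were small, with 19 of the 25 (76%) under 0.2 in size, against 67.3% of all. The 95% intervals of 23 genes lay within a 2-fold change in either direction, and those of 15 within a 1.5-fold change. The intervals of Trim32 and Kif17 reached past 2-fold.

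**Figure D1:**
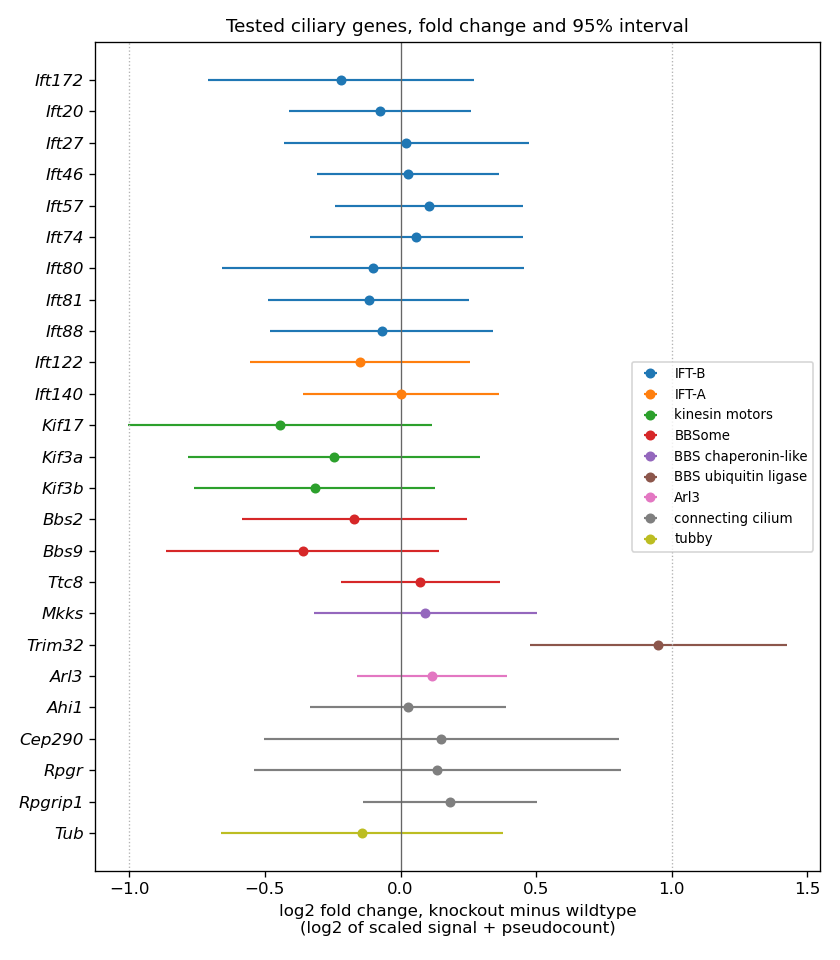
Log2 fold change, knockout minus wildtype, of the 25 tested genes on the x axis, with genes grouped by role on the y axis; points are limma estimates, bars 95% intervals, and dotted lines mark a 2-fold change. The intervals of 24 genes include 0, and that of Trim32 runs from 0.48 to 1.42.

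Trim32, an E3 ubiquitin ligase linked in humans to Bardet-Biedl syndrome and to limb-girdle muscular dystrophy, gave the largest difference among the 25. Its scaled signal was 705, 532 and 693 on knockout arrays 1 to 3, against 389, 238 and 356 on wildtype arrays 1 to 3. The knockout arrays all lay above the wildtype arrays, with wildtype array 2 the lowest of the 6. Mean signal was 643 ± 96.6 in knockout and 328 ± 79.5 in wildtype retinae (SD, n = 3 each), a ratio of 1.96. On the log2 scale the difference was 0.95 ± 0.21 (SE; 95% interval 0.48 to 1.42), which missed the threshold in limma (adjusted p = 0.999). Trim32 was the only one of the 25 with groups that did not overlap (4%, against 9.1% of all tested probe sets), and 0.383% of all were at least 1.5-fold higher in knockout without overlap. It was already known as the leading named gene when the members were chosen, so its rank here is a description.

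Only 1 probe set stood for Trim32 and its identifier ends in _a_at, a design that covers several transcripts of a gene. In the RefSeq annotation (GRCm38.p6) Trim32 lies inside Astn2, whose probe set had scaled signals of 3.61, 3.73 and 15.1 in knockout and 3.68, 12.5 and 2.34 in wildtype arrays, all under the filter. Markers of tissues that can adhere to a dissected retina varied between arrays, and their part in the Trim32 difference was not tested. For 6 pigment epithelium markers the summed signal was 3261, 2085 and 2911 on knockout arrays 1 to 3, against 2910, 1119 and 2234 on wildtype arrays 1 to 3. Ttr alone gave 1878, 1110 and 1485 of the knockout sums and 1474, 411 and 1161 of the wildtype sums. Of the 5 markers tested, 3 had positive log2 fold changes and Tyr and Tyrp1 negative ones, with a median of 0.27. Rpe65, under the filter, had 65.6 to 76.8 in knockout and 44.4 to 56.7 in wildtype arrays. Its groups did not overlap, where those of 9.1% of all tested probe sets did not. For 7 lens markers the sum was 328, 160 and 729 on knockout arrays 1 to 3, against 72, 113 and 1161 on wildtype arrays 1 to 3. All 4 tested had positive log2 fold changes, with a median of 0.49 and SEs of 0.56 to 0.92. On the linear scale the knockout mean was lower for Cryaa (53.2 against 87.0) and Cryba1 (90.3 against 142), and higher for Cryga and Crygf. For 5 skeletal muscle markers it was 222 to 298 in knockout and 322 to 447 in wildtype arrays, and all 3 tested had negative log2 fold changes. Leaving out the arrays with high 18S signal, knockout 1 and wildtype 2, gave a Trim32 log2 fold change of 0.68. The Trim32 promoter is shown whole because it belongs to the gene with the largest difference. It lies at chr4:65604736-65605035 on the plus strand, and the capitals mark first a CRX-type hexamer on the opposite strand and then the core palindrome of the NRF1 site.
Trim32: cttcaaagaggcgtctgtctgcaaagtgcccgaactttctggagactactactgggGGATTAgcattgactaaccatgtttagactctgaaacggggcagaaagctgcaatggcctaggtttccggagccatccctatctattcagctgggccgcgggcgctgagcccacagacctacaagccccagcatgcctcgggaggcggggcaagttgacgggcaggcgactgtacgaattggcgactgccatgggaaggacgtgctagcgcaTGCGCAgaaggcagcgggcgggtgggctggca

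**Figure D2:**
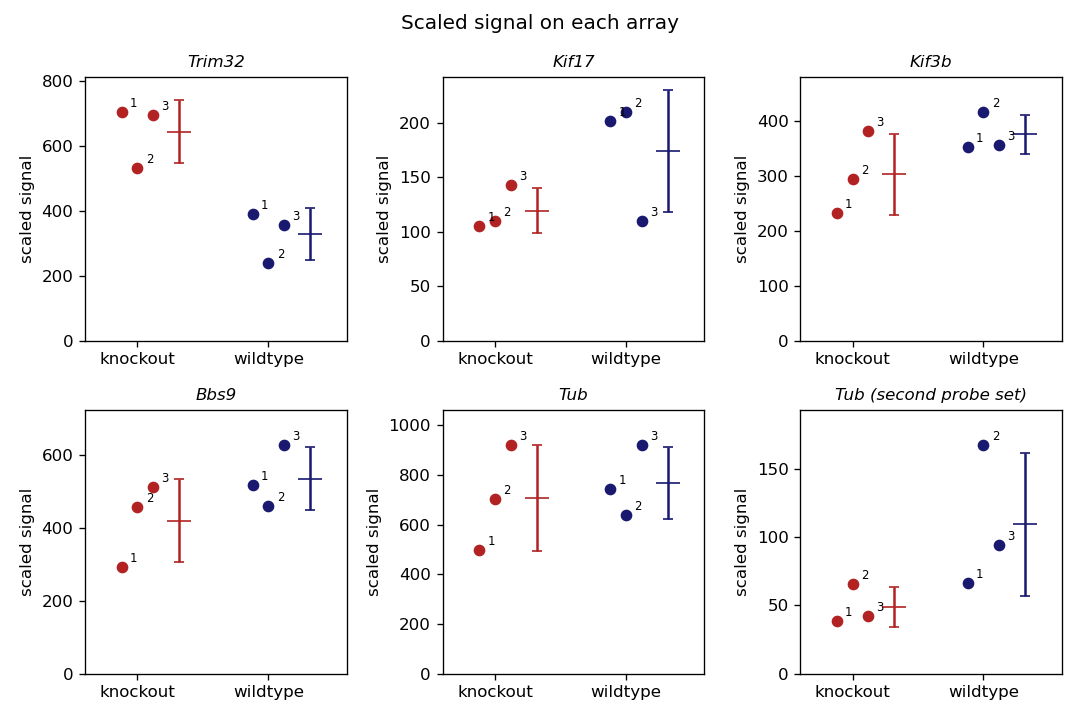
Scaled signal on the y axis (linear, from 0) for 6 probe sets, with knockout arrays left and wildtype arrays right; points are arrays with their replicate number, and bars are mean ± SD of 3 arrays. Trim32 and the second Tub probe set have groups that do not overlap, and knockout array 1 is the lowest point in every panel except that of Trim32.

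The kinesin motors had the most negative median log2 fold change of the roles, -0.32, and 0 of the 3 passed (limma adjusted p = 0.999 for each). Kif17, the homodimeric kinesin-2 that moves with some cargoes in cilia and dendrites, had 105, 110 and 143 on knockout arrays 1 to 3, against 202, 210 and 110 on wildtype arrays 1 to 3. The groups overlapped through wildtype array 3, which was as dim as the knockout arrays. Its log2 fold change was -0.44 ± 0.25 (SE; 95% interval -1.003 to 0.11). Without wildtype array 3 it was -0.71, and that setting, like the one without knockout array 3, gave groups at least 1.5-fold apart without overlap. Leaving out wildtype array 3 removes the overlap by construction, since no other wildtype array lay in the knockout range. Without knockout array 3 the margin was less than 1 unit, between knockout array 2 (109.7) and wildtype array 3 (109.8). Of all tested probe sets, 3.83% without knockout array 3 and 4.05% without wildtype array 3 were at least 1.5-fold apart without overlap in either direction. With all 6 arrays it was 1.94%. A further Kif17 probe set, under the filter, had 97.2, 45.9 and 68.3 in knockout and 50.7, 72.8 and 35.0 in wildtype arrays, which is the opposite sign (log2 fold change 0.31), and the dimmest stayed at or under 6.25 on every array.

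Kif3b, a motor subunit of the heterotrimeric kinesin-2, had 233, 293 and 380 on knockout arrays 1 to 3, against 352, 416 and 355 on wildtype arrays 1 to 3. Only knockout array 3 reached the wildtype range. The log2 fold change was -0.32 ± 0.20 (SE), and the other 3 tested Kif3b probe sets had -0.095, -0.41 and -0.44, so all 4 were negative. On knockout arrays 2 and 3 alone, without knockout array 1, the 4 values were -0.15, 0.044, -0.029 and -0.22. Its partner Kif3a had 225, 449 and 391 in knockout arrays, against 370, 433 and 424 in wildtype arrays, with knockout array 1 lowest of all. The Kif3a log2 fold change was -0.25 ± 0.24 (SE) with all arrays, 0.035 without knockout array 1 and 0.054 without rescaling of the arrays. Those of Kif17 and Kif3b kept a negative sign in all 3 fits. They were -0.37 and -0.15 without knockout array 1, and -0.16 and -0.018 without rescaling, so that Kif3b was then near 0. The second Kif3a probe set had -0.19.

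Intraflagellar transport complex B was the largest group, with 9 measured genes, of which 4 had positive and 5 negative log2 fold changes and 0 passed. All 9 lay between -0.22 and 0.11. Ift172, a large complex B protein at the ciliary tip turnaround, had 94.2, 102 and 153 in knockout arrays, against 164, 126 and 121 in wildtype arrays, and the groups overlapped. Its log2 fold change was -0.22 ± 0.22 (SE). Ift81, which with Ift74 binds tubulin, had 457, 522 and 634 in knockout arrays, against 614, 554 and 573 in wildtype arrays. The Ift81 log2 fold change was -0.12 ± 0.16 (SE), and a second probe set had -0.070.

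Ift88, whose hypomorphic mouse mutant loses its photoreceptors, averaged 172 ± 22.7 in knockout and 182 ± 28.3 in wildtype retinae (SD, n = 3 each). Ift20, the subunit also found at the Golgi, was among the most even probe sets, at 271 ± 11.5 in knockout and 286 ± 5.22 in wildtype (SD, n = 3 each), and its interval ran from -0.41 to 0.26. The log2 fold changes of Ift74, Ift57 and Ift46 were 0.058, 0.11 and 0.028. Ift27, a small GTPase of complex B that links it to BBSome exit, had 0.022, and its other 2 probe sets had -0.015 and -0.024. Ift80 had -0.10, with signals of 126, 245 and 207 in knockout arrays and 248, 166 and 196 in wildtype arrays, so that the lowest and one of the highest values both fell in the knockout group. Its second probe set had 65.1, 208 and 161 in knockout arrays and 173, 189 and 180 in wildtype arrays, with knockout array 1 far below the rest.

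For complex A, Ift122 had 183, 182 and 257 in knockout arrays, against 234, 221 and 233 in wildtype arrays. The knockout values lay on both sides of a narrow wildtype range, and the log2 fold change was -0.15 ± 0.18 (SE). Ift140, mutated in human skeletal and retinal ciliopathies, averaged 290 ± 28.2 in knockout and 289 ± 24.3 in wildtype retinae (SD, n = 3 each). Its log2 fold change of 0.0012 was the smallest in size of the 25, with an interval from -0.36 to 0.36.

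Of the BBSome, 3 of the 7 listed subunits were measured and 0 passed. Bbs9, a scaffold subunit, had 292, 457 and 513 on knockout arrays 1 to 3, against 519, 460 and 630 on wildtype arrays 1 to 3. Knockout array 1 was the lowest, and the ranges of the groups overlapped. The log2 fold change was -0.36 ± 0.22 (SE), and it was -0.13 without knockout array 1. Bbs2 had 208, 204 and 232 in knockout arrays, against 302, 236 and 202 in wildtype arrays, where wildtype array 1 was the highest (log2 fold change -0.17 ± 0.18, SE). Ttc8, also known as Bbs8, averaged 1133 ± 42.7 in knockout and 1077 ± 77.3 in wildtype retinae (SD, n = 3 each), and its interval from -0.22 to 0.37 was among the narrowest. Mkks, a chaperonin-like protein needed for BBSome assembly, had 434, 439 and 313 in knockout arrays, against 324, 390 and 387 in wildtype arrays. Its groups overlapped, with log2 fold changes of 0.092 and, for a second probe set, -0.017.

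Arl3, the GTPase that releases lipidated cargo into the cilium, had 2588, 2822 and 2361 in knockout arrays, against 2505, 2151 and 2515 in wildtype arrays. The groups overlapped, and the log2 fold change was 0.12 ± 0.12 (SE; 95% interval -0.16 to 0.39), the smallest error of the 25. Rp2, which switches Arl3 off and is mutated in X-linked retinitis pigmentosa, was dim, at 16.5, 38.8 and 30.8 in knockout and 31.3, 18.4 and 48.0 in wildtype arrays. All 3 Rp2 probe sets stayed under the filter and were not tested.

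The connecting cilium and transition zone genes had positive log2 fold changes in all 4 measured cases, from 0.027 to 0.18, and 0 of the 4 passed. With 1 array left out, the sign turned for Ahi1 (-0.089 without knockout 3, -0.0026 without wildtype 2), Cep290 (-0.026 without knockout 3, -0.021 without wildtype 2) and Rpgr (-0.042 without knockout 2, -0.16 without wildtype 1). The mean of its probe sets also turned Ahi1 (-0.51), while Rpgrip1 stayed positive in the settings run. Rpgrip1, the scaffold that anchors RPGR in the photoreceptor connecting cilium, had 1624, 1251 and 1631 on knockout arrays 1 to 3, against 1344, 1289 and 1303 on wildtype arrays 1 to 3. Knockout arrays 1 and 3 lay above the wildtype arrays and knockout array 2 below them. On the log2 scale Rpgrip1 differed by 0.18 ± 0.14 (SE; adjusted p = 0.999 in limma), and 2 further tested Rpgrip1 probe sets had -0.022 and 0.30. The dimmest Rpgrip1 probe set, under the filter, had 22.0, 69.8 and 58.9 in knockout arrays, against 55.3, 68.5 and 69.9 in wildtype arrays (log2 fold change -0.34). Rpgr itself, an X-linked retinitis pigmentosa gene, had 65.9, 102 and 62.7 in knockout arrays, against 38.0, 70.6 and 104 in wildtype arrays. Cep290, a transition zone protein mutated in Leber congenital amaurosis, had 49.4, 92.3 and 107 in knockout arrays, against 65.1, 51.0 and 100.1 in wildtype arrays. Both were dim and varied by more than 2-fold between arrays of the same group in at least 1 group, and their intervals were the widest of this role, from -0.54 to 0.81 for Rpgr and from -0.50 to 0.80 for Cep290.

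Ahi1, the Joubert syndrome protein jouberin, was even on its brightest probe set, at 546, 511 and 678 in knockout arrays and 549, 540 and 603 in wildtype arrays (log2 fold change 0.027). Its second probe set had 4.95, 112 and 132 in knockout arrays, against 129, 154 and 147 in wildtype arrays. The value of 4.95 on knockout array 1 was far below the other 5 of that probe set, and the log2 fold change of -1.05 ± 0.58 (SE; limma adjusted p = 0.999) became -0.20 on knockout arrays 2 and 3 alone. Tub, the tubby protein whose loss causes retinal degeneration and obesity in mice, had 498, 702 and 922 in knockout arrays, against 742, 637 and 923 in wildtype arrays on its brightest probe set. Those groups overlapped (log2 fold change -0.14 ± 0.23, SE). Of the 38 tested probe sets of members, 2 had groups without overlap, against 9.1% of all tested probe sets, and the second Tub probe set was 1 of them. It had 38.3, 65.6 and 42.3 in knockout arrays, against 66.0, 168 and 94.0 in wildtype arrays. The margin was less than 1 unit, between knockout array 2 and wildtype array 1. The difference on the log2 scale was -0.86 ± 0.30 (SE; adjusted p = 0.999 in limma), and -0.75 on knockout arrays 2 and 3 alone.

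**Figure D3:**
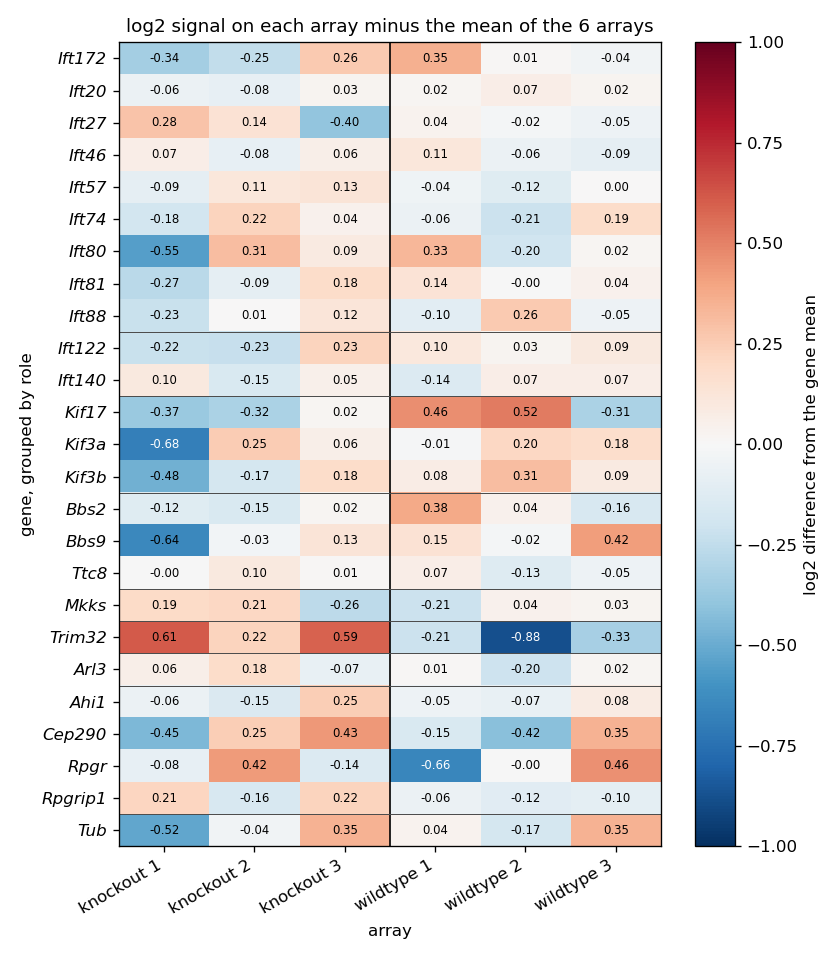
Log2(scaled signal + 19.1) of the 25 tested genes (y axis, by role) on each array (x axis, knockout left of the line, wildtype right), minus the gene's mean over the 6 arrays; colour and printed value give the same number. Knockout array 1 is the lowest of the 6 for 10 genes, and Trim32 is the only gene with all knockout values above all wildtype values.

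Knockout array 1 was the lowest of the 6 arrays for 10 of the 25 genes (40%), against 28.2% of all tested probe sets. These were Bbs9, Cep290, Ift172, Ift80, Ift81, Ift88, Kif17, Kif3a, Kif3b and Tub. It was the highest for 3, which were Trim32, Ift27 and Ift140, where 25.3% of all tested probe sets were highest on it. Over all 38 tested probe sets of the set, it was the lowest for 20 (52.6%), and of the 13 that were not the brightest of their gene, for 10. This array also had the highest Actb 3′ to 5′ ratio, and on that ratio all knockout arrays lay above all wildtype arrays. The part of RNA integrity in these values, and in the differences between the groups, was not tested. The median deviation of the 25 genes from their own means was -0.12, -0.030 and 0.087 on knockout arrays 1 to 3, against 0.023, -0.017 and 0.024 on wildtype arrays 1 to 3.

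At least 2 tested probe sets were available for 9 genes. For 5 of the 9, all tested probe sets had one sign. The spread between probe sets of the same gene was widest for Ahi1, at 1.08 on the log2 scale, and was 0.27 for it without knockout array 1. For Tub it was 0.72 with all arrays and 0.84 without knockout array 1, so there the probe sets differed on the other arrays too. For Ift27, Ift81 and Kif3a the spread was 0.045, 0.049 and 0.059, and without knockout array 1 it was 0.039, 0.15 and 0.14. For Rpgrip1 it was 0.32 with all arrays and 0.54 without knockout array 1.

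**Figure D4:**
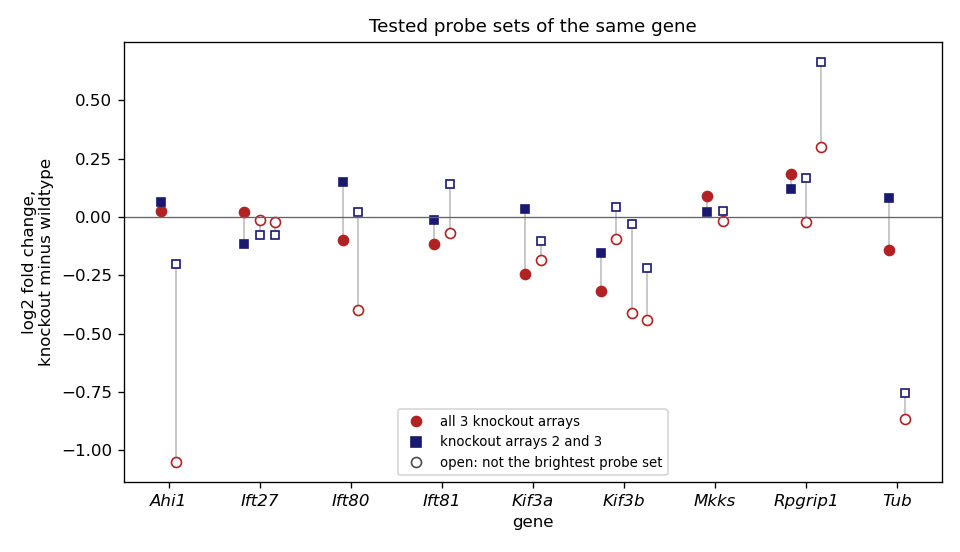
Log2 fold change, knockout minus wildtype (y axis), of the 22 tested probe sets of 9 genes (x axis); circles use all 3 knockout arrays, squares knockout arrays 2 and 3, and filled symbols are the brightest probe set of a gene. The second Ahi1 probe set goes from -1.05 with all arrays to -0.20 without knockout array 1, while the second Tub probe set stays low at -0.86 and -0.75.

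Beyond the 38 genes, 67 other symbols of ciliary transport, the transition zone, basal body and ciliary gene regulation were listed. Probe sets were found for 37, and 28 of these were above the filter. None passed (0 of 28 in limma, and 0 with an unadjusted p under 0.05), with 16 positive and 12 negative log2 fold changes and a median of 0.022. Pcm1, the scaffold of centriolar satellites, had 392, 353 and 526 in knockout arrays, against 253, 272 and 386 in wildtype arrays (log2 fold change 0.46 ± 0.21, SE; limma adjusted p = 0.999). Of its other probe sets, the next brightest had 148, 166 and 201 in knockout arrays, against 128, 121 and 139 in wildtype arrays, and the dimmest that was tested had 54.9, 157 and 91.5 in knockout arrays, against 67.4, 116 and 180.1 in wildtype arrays.

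Fam161a, a connecting cilium and basal body protein of photoreceptors, had 309, 301 and 300.2 in knockout arrays, against 394, 440 and 333 in wildtype arrays. Its groups did not overlap, and they differed by -0.33 ± 0.16 on the log2 scale (SE; adjusted p = 0.999 in limma). Of the 28 tested genes of this list, 2 had groups without overlap, Fam161a and Wdpcp, against 9.1% of all tested probe sets. Wdpcp, a planar polarity effector of ciliogenesis, had 59.5, 141 and 146 in knockout arrays, against 159, 164 and 163 in wildtype arrays. All knockout values lay below a narrow wildtype range, most of the distance coming from knockout array 1 (log2 fold change -0.51 ± 0.28, SE). Rab8a, a GTPase of vesicle traffic to the cilium, had 564, 729 and 648 in knockout arrays, against 799.7, 1049 and 599 in wildtype arrays, which overlapped. Markers of multiciliated cells, which share this machinery, were all under the filter: Foxj1, Dnah5, Rsph1 and Tekt1 had scaled signals between 1.55 and 53.8, with sums of 103 to 109 in knockout and 99 to 141 in wildtype arrays.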

How the data were processed

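The submitters extracted and hybridised retinal total RNA. The authors' deposited table holds 1 linear intensity per probe set and array, computed with MAS5 according to the submitters' processing notes; the version, scaling target and detection calls are not given in the sources used here. Of 22690 rows, 64 controls were dropped. Arrays were brought to a common mean (2% trimmed from both tails), 19.1 was added (the signal at the 20th percentile) and log2 was taken, which understates differences of dim genes. Testing covered the 13575 probe sets whose mean exceeded 62.4 (the 40th percentile), with limma 3.58.1 in R 4.3.3: lmFit, eBayes with an intensity trend, and Benjamini-Hochberg adjustment. Symbols came from the platform annotation, brought up to date by Entrez identifier for 20364 probe sets; 20380 had 1 symbol, 691 several and 1555 none.

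Every member is given by value or range. Signals of single arrays are printed for members at least 1.2-fold apart without overlap and for those with the smallest unadjusted p of each role, and for further members to show their spread, chosen after their values were seen. Of the other cilium genes, the 4 with the smallest unadjusted p are named. Members, lists and alternatives were chosen with earlier results of these data known. The targeted gene is not reported here. Nothing states that arrays came from separate animals, so the p-values reflect the spread of these arrays, part of which may be technical, and their small number limits the precision.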

Additional observations from a re-analysis of the deposited data

How the results depend on the processing

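None of the members tested passed in any of the 19 settings run (scaling, pseudocount, filter, variance model, weights, block, choice of probe set, arrays left out), and likewise 0 of the other cilium genes. The Trim32 log2 fold change kept its sign in all 19, from 0.68 to 1.25, with limma adjusted p values from 0.38 to 1.0. Of 471 recomputed values of members, 45 changed sign, all of genes with a log2 fold change of at most 0.25 in size. Without rescaling, where the tested probe sets together had a median of 0.29, that of the members was 0.30 and 10 probe sets passed in place of 2. The signs of Tub (0.17), Ift81 (0.19), Kif3a (0.054), Ift20 (0.22), Bbs2 (0.12), Ift122 (0.14), Ift80 (0.18), Ift88 (0.22) and Ift172 (0.052) turned there. Median scaling gave a median of 0.090 and turned Ift20 (0.013) and Ift88 (0.017), and without a filter 1 probe set passed. Array weights turned Tub (0.10), Ift46 (-0.0011), Ift140 (-0.0033), Ift27 (-0.11) and Ift80 (0.047). Averaging the probe sets of a gene turned Ahi1 (-0.51) and Ift27 (-0.0056), and leaving out suffixed probe sets turned Ift27 (-0.015). Without knockout 1 and wildtype 2 together, 4 probe sets passed and Ift46 (-0.022), Kif3a (0.076), Ift140 (-0.014), Ift27 (-0.12), Ift80 (0.024) and Ift88 (0.14) turned. With 1 array left out, signs turned for Ahi1 (-0.089 to 0.11), Cep290 (-0.026 to 0.41), Ift140 (-0.066 to 0.078), Ift27 (-0.12 to 0.22), Ift46 (-0.011 to 0.090), Ift74 (-0.040 to 0.16), Ift80 (-0.28 to 0.15), Ift88 (-0.14 to 0.044), Kif3a (-0.43 to 0.035), Rpgr (-0.16 to 0.40) and Tub (-0.35 to 0.083). In those fits the median of members ranged from -0.089 (without knockout 3) to 0.027, and 0 to 4 probe sets passed: 1 without knockout 2 or knockout 3, 0 without wildtype 3 and 4 without wildtype 2. From 1 to 2 members were 1.5-fold apart without overlap, Kif17 joining Trim32 without knockout 3 or wildtype 3, where the number over all tested probe sets was 520 and 550, against 264 with all arrays. For Kif17, leaving out wildtype 3 removes the overlap by construction, and without knockout 3 the nearest values were 109.7 (knockout 2) and 109.8 (wildtype 3). A replicate block for the array numbers left 2 probe sets and 0 members past the threshold, with a limma adjusted p of 0.44 for Trim32. The numbers are not known to pair the arrays: the deviations of knockout and wildtype arrays of the same number had correlations of 0.18, -0.029 and 0.084. The cause of these shifts was not tested, beyond the smaller number of arrays or probe sets by construction.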
